A study of Saccharomyces cerevisiae with 6 samples.

Results

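The genes described here encode the calcium, calcineurin and calmodulin kinase machinery of budding yeast (Saccharomyces cerevisiae). They were 10 genes taken by name: the calcineurin subunits CNA1, CMP2 and CNB1, the transcription factor CRZ1, the calcineurin regulators RCN1 and RCN2, the kinases CMK1 and CMK2, and the calcium pumps PMC1 and PMR1. Each had 1 probe set annotated to that gene alone, so 10 of 5449 named S. cerevisiae genes on the array are described. Wild-type cells in mid-log phase were cultured for 3 h with 0.1 µM OGT2468, or with DMSO at 0.1%. The design text calls this the corresponding amount of DMSO, but the labels do not say whether the OGT2468 cultures held it too, so OGT2468 and a difference in DMSO cannot be told apart from the labels. There were 3 cultures with OGT2468 and 3 with DMSO, each hybridised to its own array, and the design text calls them biological samples. OGT2468 is a code name, and nothing of its structure is given. The labels give no strain background or mating type.

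In yeast, a rise of cytosolic calcium is sensed by calmodulin, which activates the phosphatase calcineurin and a pair of calmodulin-dependent protein kinases. Calcineurin removes phosphate from Crz1, which then enters the nucleus and switches on genes for calcium pumps, ion homeostasis and the cell wall. Rcn proteins bind calcineurin and tune its activity, and the pumps Pmc1 and Pmr1 return calcium to the vacuole and to the Golgi. The activity of this pathway is set largely by protein modification, which transcript levels do not show.

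All 10 genes were above background on all 6 arrays. On single arrays the median deposited intensity of named probe sets lay between 691 and 842 on the OGT2468 arrays and between 786 and 1150 on the DMSO arrays. The arrays were therefore quantile normalized, and intensities below are normalized unless called deposited. Log2 changes are OGT2468 minus DMSO on the log2(intensity + 16) scale, with limma's SE and p-values adjusted over all 8968 probe sets tested. Intensities of different probe sets have no common scale, so levels are compared only within a gene.

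In cells given OGT2468, CMK2 and RCN2 rose, by 1.75-fold and 1.52-fold. None of the 10 genes fell, and 8 did not pass the test. Each array read the RNA of a whole culture, so a change per cell and a change in the share of cells with the transcript cannot be told apart. Over all tested probe sets 2.59% passed in either direction, 1.83% higher and 0.758% lower. The tested probe sets included 3470 with no gene name. With the 5498 named probe sets alone, 326 were higher and 203 lower, and 3 of the 10 genes passed. The median log2 change was 0.17 over the 10 genes and -0.02 over all 5449 named genes, and 6 of the 10 had a positive change. The genes of the calcineurin enzyme itself and of Crz1 did not pass, with log2 changes between -0.18 and 0.27. Among other genes listed as calcineurin and Crz1 targets 5 of 10 measured passed, all of them higher. That list was chosen with earlier results of these data known. With no scaling between arrays neither CMK2 nor RCN2 passed, nor did any of those targets.

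**Figure D1:**
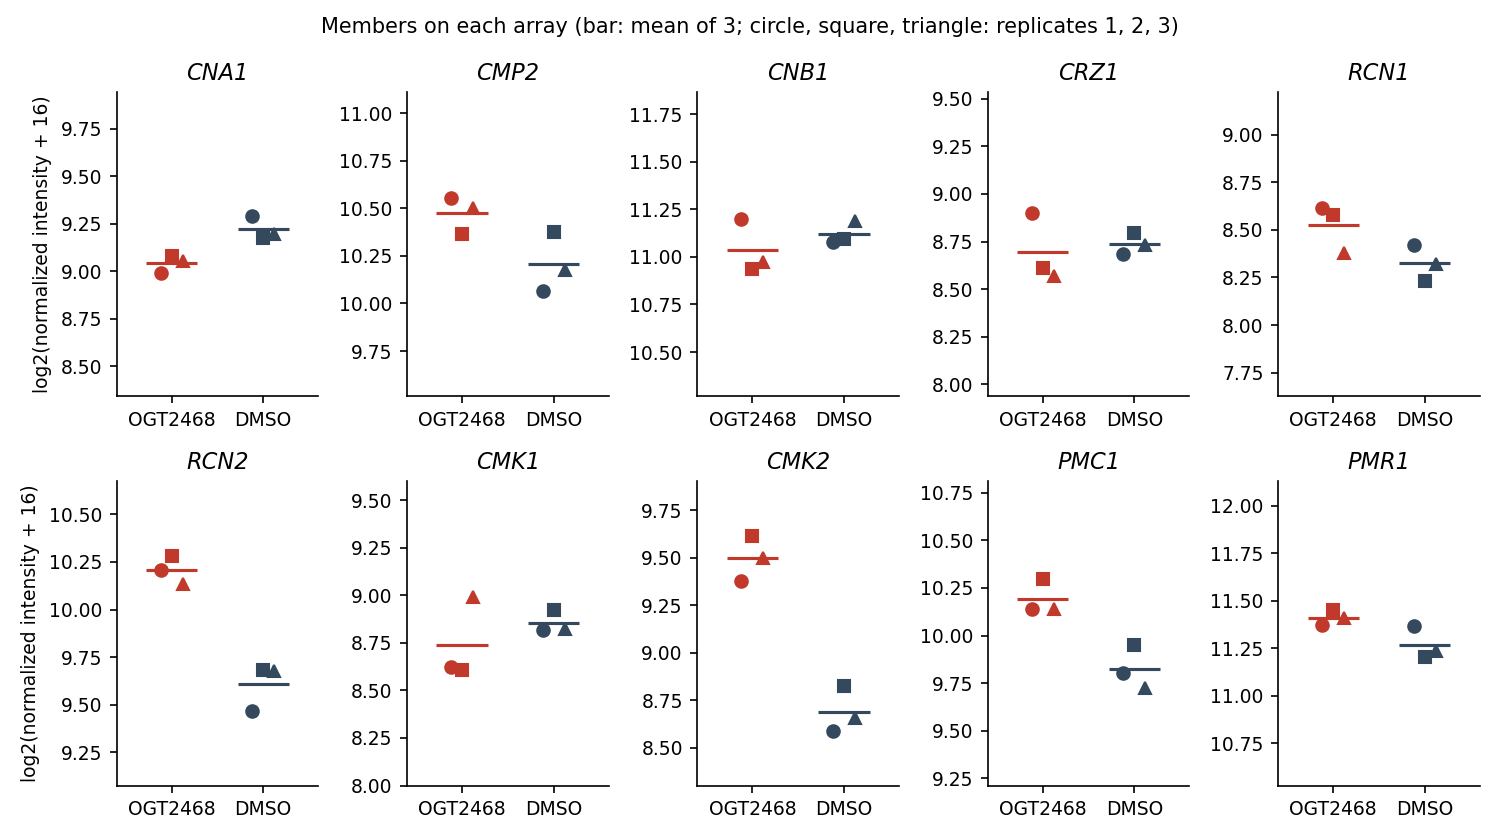
Level of each of the 10 genes on every array, as log2(normalized intensity + 16), with OGT2468 left of DMSO in each panel. Each point is 1 array and the bar is the mean of 3. All panels span the same log2 range, and the groups stand farthest apart for CMK2 (9.50 in OGT2468 and 8.69 in DMSO) and RCN2 (10.21 in OGT2468 and 9.61 in DMSO).

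Calcineurin has a catalytic subunit, encoded by either CNA1 or CMP2 (also called CNA2), and a regulatory subunit, encoded by CNB1. CNA1 (YLR433C) had intensities of 493, 525 and 516 in OGT2468, against 611, 562 and 570 in DMSO. All 3 OGT2468 values lay below all 3 DMSO values, by a small margin. The log2 change was -0.18 ± 0.06 (SE, n = 3 per group) with a 95% interval from -0.33 to -0.02, and it did not pass over all probe sets (limma adjusted p = 0.249). CMP2 (YML057W) had 1489, 1303 and 1435 in OGT2468, against 1057, 1313 and 1142 in DMSO. The groups overlapped through DMSO replicate 2, and the log2 change of 0.27 ± 0.10 (SE) did not pass (limma adjusted p = 0.275). CNB1 (YKL190W) had 2333, 1943 and 1994 in OGT2468, against 2145, 2170 and 2318 in DMSO. OGT2468 replicate 1 was the highest of all 6, the other two were the lowest, and the log2 change was -0.08 ± 0.09 (SE, limma adjusted p = 0.697).

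CRZ1 (YNL027W), the zinc finger factor that calcineurin dephosphorylates, had 462, 375 and 364 in OGT2468, against 396, 428 and 409 in DMSO. The DMSO values lay inside the range of the OGT2468 values. Its log2 change was the smallest of the 10 genes in size, -0.04 ± 0.10 (SE), with a 95% interval from -0.30 to 0.21 (limma adjusted p = 0.879). With 3 arrays per group, a change of the CRZ1 transcript anywhere within that interval remains compatible with these values.

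RCN1 and RCN2 encode the regulators of calcineurin. Rcn1 is the yeast relative of the vertebrate calcipressins, and its gene is known to be induced through Crz1, a feedback on the enzyme. RCN1 (YKL159C) had 376, 366 and 317 in OGT2468, against 327, 285 and 304 in DMSO. OGT2468 replicates 1 and 2 lay above every DMSO array and replicate 3 did not, and the log2 change of 0.20 ± 0.09 (SE) did not pass (limma adjusted p = 0.356). RCN2 (YOR220W), the less studied of the pair, had 1168, 1227 and 1110 in OGT2468, against 692, 804 and 803 in DMSO. All OGT2468 arrays were above all DMSO arrays. Its log2 change was 0.60 ± 0.08 (SE), with a 95% interval from 0.39 to 0.81 (limma adjusted p = 0.0249), the 98th largest rise of 5449 named genes. This call was lost without any 1 array (adjusted p between 0.0657 and 0.0907), although the log2 change stayed between 0.53 and 0.64.

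The difference between RCN2 and RCN1 on the same array averaged 1.68 ± 0.08 log2 units in OGT2468 and 1.28 ± 0.21 in DMSO (SD, n = 3 each). Its shift of 0.40 says that the change of RCN2 was larger than that of RCN1 by that amount, and the groups did not overlap. An exact two-sided permutation test gave p = 0.1, the smallest that 3 arrays against 3 allow, and 0.133 after adjustment over the 4 pairs of genes compared.

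CMK1 and CMK2 encode closely related calmodulin-dependent protein kinases, and CMK2 is known as a target of Crz1. CMK2 (YOL016C) had 650, 768 and 708 in OGT2468, against 369, 438 and 388 in DMSO. The lowest OGT2468 array was well above the highest DMSO array. The log2 change was 0.81 ± 0.10 (SE), with a 95% interval from 0.57 to 1.04 (limma adjusted p = 0.0143), the largest of the 10 genes and the 52nd largest rise of 5449 named genes. Without 1 array it lay between 0.75 and 0.87, and the call held without DMSO replicate 2 or OGT2468 replicate 1 and was lost without any other array, with adjusted p up to 0.0729.

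CMK1 (YFR014C) had 378, 374 and 493 in OGT2468, against 435, 469 and 436 in DMSO. Replicates 1 and 2 of OGT2468 were below every DMSO array and replicate 3 was above every one. The log2 change was -0.11 ± 0.12 (SE), with a 95% interval from -0.40 to 0.18 (limma adjusted p = 0.697). The difference of CMK2 minus CMK1 was 0.76, 1.01 and 0.51 log2 units on the OGT2468 arrays, against -0.23, -0.09 and -0.16 on the DMSO arrays. It shifted by 0.92 ± 0.15 (SE), the largest shift of the 4 pairs, with p = 0.1 (exact two-sided permutation test, adjusted p = 0.133). A difference within an array is little affected by the scaling between arrays, and over the 12 alternatives run for the pairs it lay between 0.80 and 1.04.

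PMC1 encodes the vacuolar calcium ATPase, whose gene is induced through calcineurin, and PMR1 encodes the calcium and manganese ATPase of the Golgi. PMC1 (YGL006W) had 1112, 1244 and 1111 in OGT2468, against 877, 972 and 829 in DMSO. The groups did not overlap. The log2 change of 0.37 ± 0.09 (SE), with a 95% interval from 0.15 to 0.58, did not pass over all probe sets (limma adjusted p = 0.11). PMR1 (YGL167C) had 2633, 2783 and 2701 in OGT2468, against 2625, 2345 and 2397 in DMSO. OGT2468 replicate 1 exceeded DMSO replicate 1 by less than the spread within either group, so the groups stood apart by little, and the log2 change was 0.14 ± 0.07 (SE, limma adjusted p = 0.384).

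**Figure D2:**
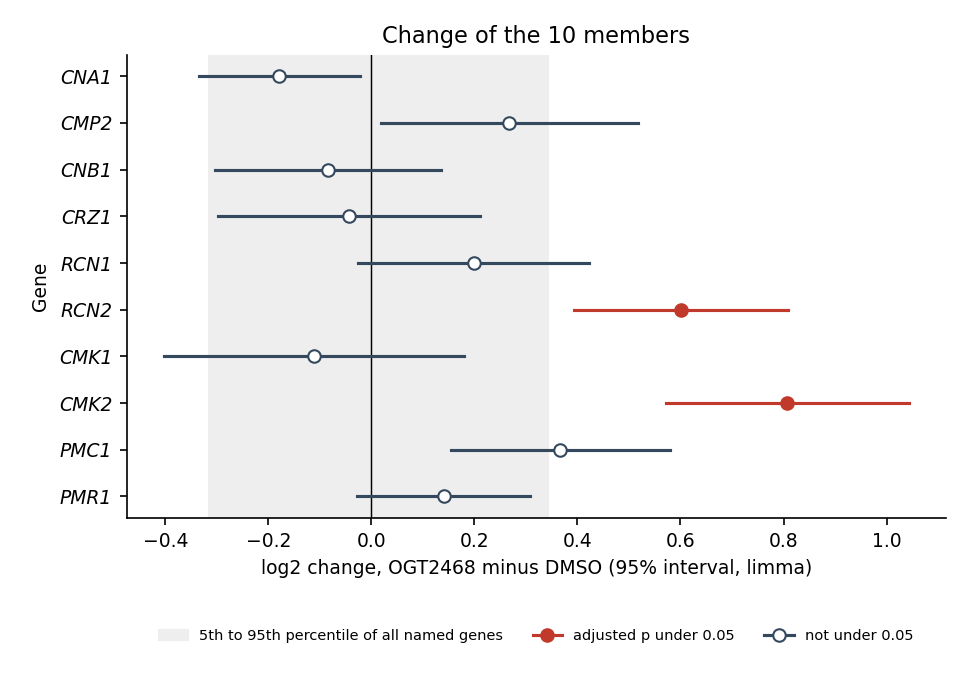
Log2 change of each of the 10 genes, OGT2468 minus DMSO, with its 95% limma interval (n = 3 per group). Filled red points had an adjusted p under 0.05, and the grey band spans the 5th to the 95th percentile of all named genes (-0.31 to 0.34). CMK2 and RCN2 have intervals wholly above the band.

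Besides the called pair, CNA1, PMC1 and PMR1 had groups that did not overlap. That makes 5 of the 10 genes, against 24.1% of all tested probe sets. In the deposited intensities, before any scaling, 3 of the 10 did not overlap, against 20.7% of all tested probe sets. They were CMK2, with 646, 691 and 575 in OGT2468 against 385, 396 and 528 in DMSO, and CNA1 and CMK1, both lower in OGT2468. The deposited intensities of RCN2 overlapped, at 1169, 1085 and 902 in OGT2468 against 726, 741 and 1081 in DMSO, through the bright DMSO replicate 3 array.

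The remaining pairs of related genes were compared in the same way. CMP2 minus CNA1 averaged 1.43 ± 0.14 log2 units in OGT2468 and 0.99 ± 0.21 in DMSO (SD, n = 3 each), a shift of 0.45. The groups did not overlap (exact two-sided permutation test, p = 0.1, adjusted p = 0.133). PMC1 minus PMR1 averaged -1.22 ± 0.06 in OGT2468 and -1.44 ± 0.16 in DMSO, a shift of 0.23 with overlapping groups (exact permutation p = 0.2, adjusted p = 0.2). None of the 4 shifts could pass at this number of arrays, and all 4 kept their direction under the 12 alternatives run for them. With each of the 4 alternative normalizations CMP2 minus CNA1 had p = 0.2 and PMC1 minus PMR1 p = 0.1 (exact permutation test). Which of these pairs had overlapping groups therefore depended on the scaling.

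**Figure D3:**
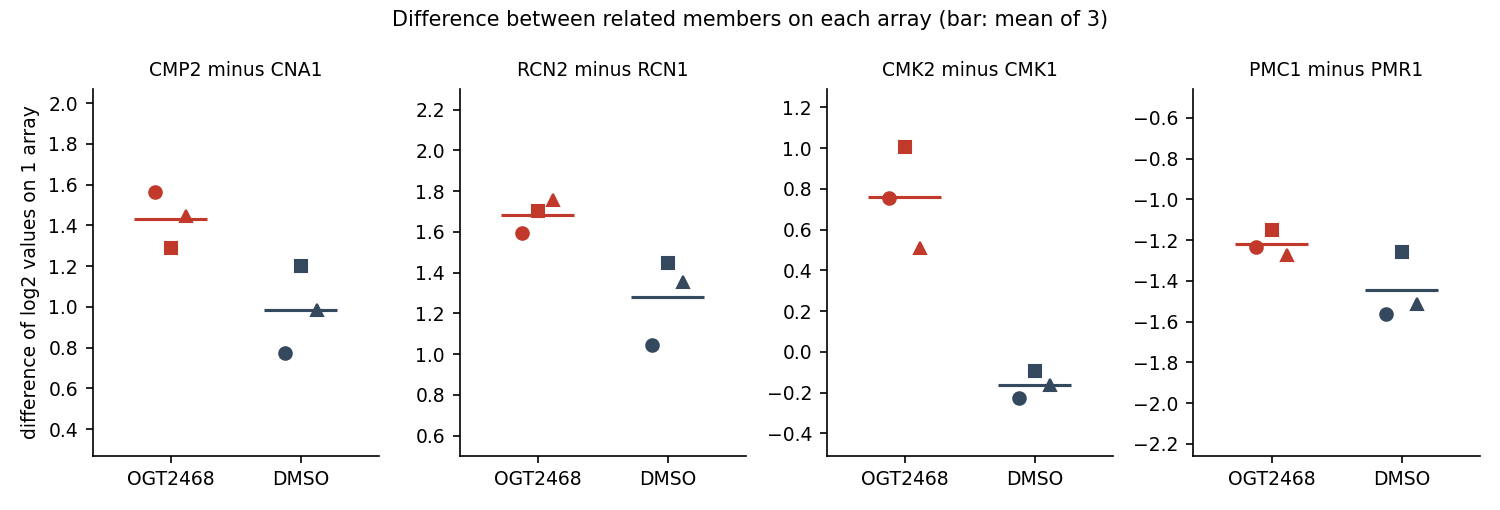
Difference of the log2 values of related genes on each array, OGT2468 left of DMSO, with the mean of 3 as a bar. Panels span the same log2 range, and the level of a difference depends on the probe sets, so only its shift between groups can be read. The shift is 0.92 for CMK2 minus CMK1, 0.45 for CMP2 minus CNA1, 0.40 for RCN2 minus RCN1 and 0.23 for PMC1 minus PMR1.

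The wider pathway was described with 5 gene lists, of which 42 of 45 genes were measured. The lists were chosen with earlier results of these data known, so their counts and medians are descriptive and test nothing. Of the 10 measured genes listed as calcineurin and Crz1 targets, other than the 10 genes above, 5 rose and none fell, and all 10 had a positive change, with a median of 0.59. That median was 0.34 with no scaling between arrays and 0.44 with scaling on the hybridization controls. The medians of all named genes were then -0.27 and -0.18. DIA1 rose by 1.03 ± 0.08 on the log2 scale (SE, limma adjusted p = 0.00318). YPS1, a cell surface aspartic protease, had 2589, 2772 and 2820 in OGT2468, against 1318, 1373 and 1392 in DMSO, a rise of 0.99 (limma adjusted p = 0.00201). GSC2, the inducible subunit of glucan synthase also called FKS2, rose by 0.98, and CRH1, a cell wall transglycosylase, by 0.83. KRE6, which acts in beta-glucan synthesis, rose by 0.34 (adjusted p = 0.0422), and lost its call in each fit that left out an array.

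Targets with no call included PHO89, the sodium-dependent phosphate transporter and a classical Crz1 target. It had 190, 125 and 124 in OGT2468, against 85.2, 78.0 and 52.2 in DMSO, a log2 change of 0.88 ± 0.22 (SE, limma adjusted p = 0.12). GYP7, a GTPase-activating protein of vesicle transport, changed by 0.34 (adjusted p = 0.101) and SCW10, a cell wall protein, by 0.27 (adjusted p = 0.108). YPS1, GSC2, CRH1 and KRE6 have roles linked to the cell wall. YPS1, GSC2 and CRH1 are also known as targets of the cell wall integrity kinase Slt2, and the part of either pathway in their rise was not tested. ENA1, the sodium pump gene often used as a Crz1 reporter, and NCW2 were not analysed here.

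In the list of calcium channels, transporters and their regulators 2 of 11 genes fell and none rose, with a median of 0.08. FIG1, a membrane protein of calcium entry during mating, had 367, 438 and 265 in OGT2468, against 1863, 1790 and 1611 in DMSO, a log2 change of -2.27 ± 0.18 (SE, limma adjusted p = 0.00377). PRM6, also called KCH2 and a potassium transporter gene linked to calcium entry during mating, had 121, 152 and 81.1 in OGT2468, against 688, 725 and 678 in DMSO, a log2 change of -2.45 ± 0.20 (SE, limma adjusted p = 0.00385). Both are known as pheromone-regulated genes. The channel subunit genes CCH1 and MID1, the vacuolar exchanger gene VCX1 and the vacuolar channel gene YVC1 were among the 9 that did not pass. So were GDT1, a Golgi calcium and manganese transporter (-0.25, adjusted p = 0.102), SPF1, an ATPase of the endoplasmic reticulum (0.30, adjusted p = 0.123), and ECM7, a channel regulator (0.27, adjusted p = 0.133). Over the 16 alternatives described below GDT1 and SPF1 each passed in 4 and ECM7 in 2.

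None of the other 3 lists held a gene that passed. In the list of calcineurin substrates 7 genes had a median of 0.10, and those with the lowest p were SLM1 (0.23), ROD1 (0.32) and FRT1 (0.13). In the list of calmodulin and proteins that bind it 8 genes had a median of 0.04, and GAD1, IQG1 and ARC35 came first by p, at -0.34, 0.21 and 0.23. In the list of kinases and nuclear transport receptors of Crz1 6 genes had a median of 0.01, with log2 changes between -0.11 and 0.07, and the importin gene NMD5 stood at -0.11. By limma at an unadjusted p under 0.05 these lists held 1, 3 and 0 genes, against 16.4% of all tested probe sets. At the same threshold the channel list held 6 of 11, the target list 9 of 10 and the members 5 of 10.

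**Figure D4:**
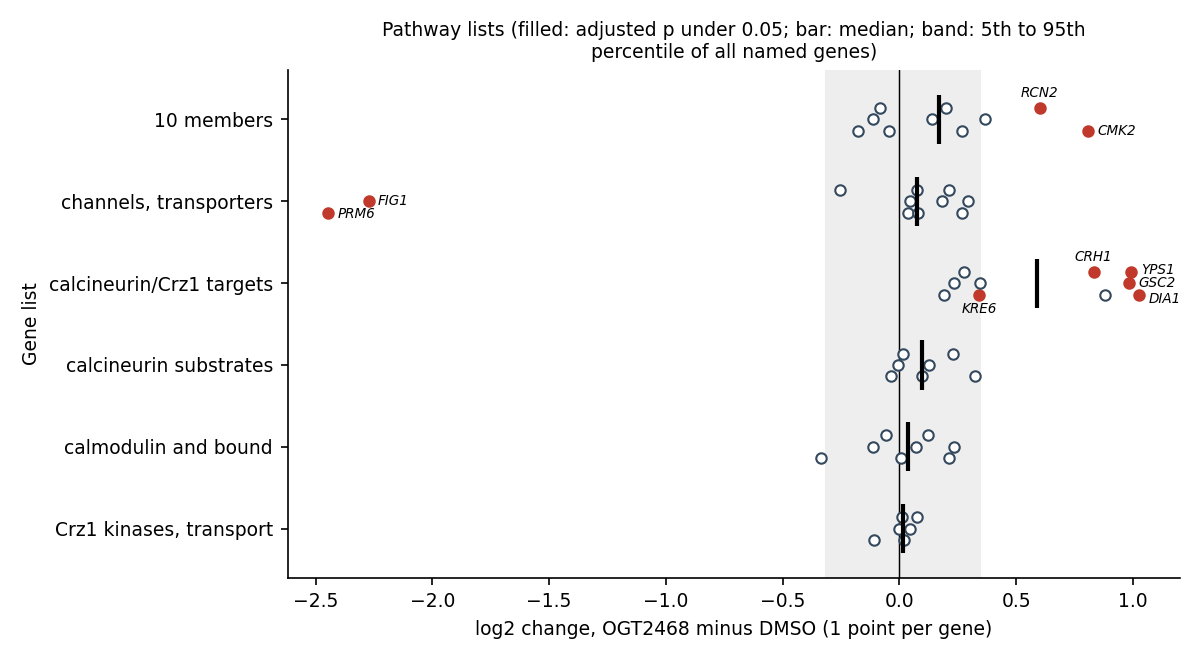
Log2 change of each gene, OGT2468 minus DMSO, for the 10 genes and the 5 pathway lists, with 1 point per gene and the list median as a black bar. Filled red points had an adjusted p under 0.05, and the grey band spans the 5th to the 95th percentile of all named genes. The target list has its median at 0.59, and the medians of the other 4 lists lie between 0.01 and 0.10. The band describes single genes, so the list medians are not read against it.

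The genes whose profile over the 6 arrays was most like that of a called gene were found by the root mean square difference of mean-centred log2 values, over 5439 other named genes. For CMK2 the closest were PAU14 (0.07 log2 units), THI4 (0.07), DOG2 (0.07), OCH1 (0.07) and SKM1 (0.08). Their log2 changes lay between 0.67 and 0.84, and that of CMK2 was 0.81. For RCN2 they were STF2 (0.04), DFG5 (0.05), YNR066C (0.06), DFM1 (0.06) and OCH1 (0.07). OCH1, the mannosyltransferase that starts the outer chain of N-glycans, was on both lists. RCN2 and CMK2 differed from each other by 0.13, and 32 genes were closer to CMK2 than RCN2 was. Over 6 arrays in 2 groups this measure mostly reads the size of the group difference.

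The calls of CMK2 and RCN2 depended on how the arrays were scaled. With no scaling the log2 change of CMK2 was 0.54 (adjusted p = 0.287) and that of RCN2 0.32 (adjusted p = 0.412), while the median of all named genes was -0.27. CMK2 then had the 56th and RCN2 the 121st largest rise of all named genes. With scaling on the hybridization controls the values were 0.64 for CMK2 (adjusted p = 0.0618) and 0.42 for RCN2 (adjusted p = 0.22), with a median of -0.18 over all named genes.

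Over 16 alternatives CMK2 passed in 10, RCN2 in 5 and PMC1 in 4, and all 3 changes were positive in every one of the 16. PMC1 passed with a pseudocount of 64 (adjusted p = 0.0399), with named S. cerevisiae probe sets alone (0.0351), without dim probe sets (0.0449) and with an intensity trend in eBayes (0.0232).

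**Figure D5:**
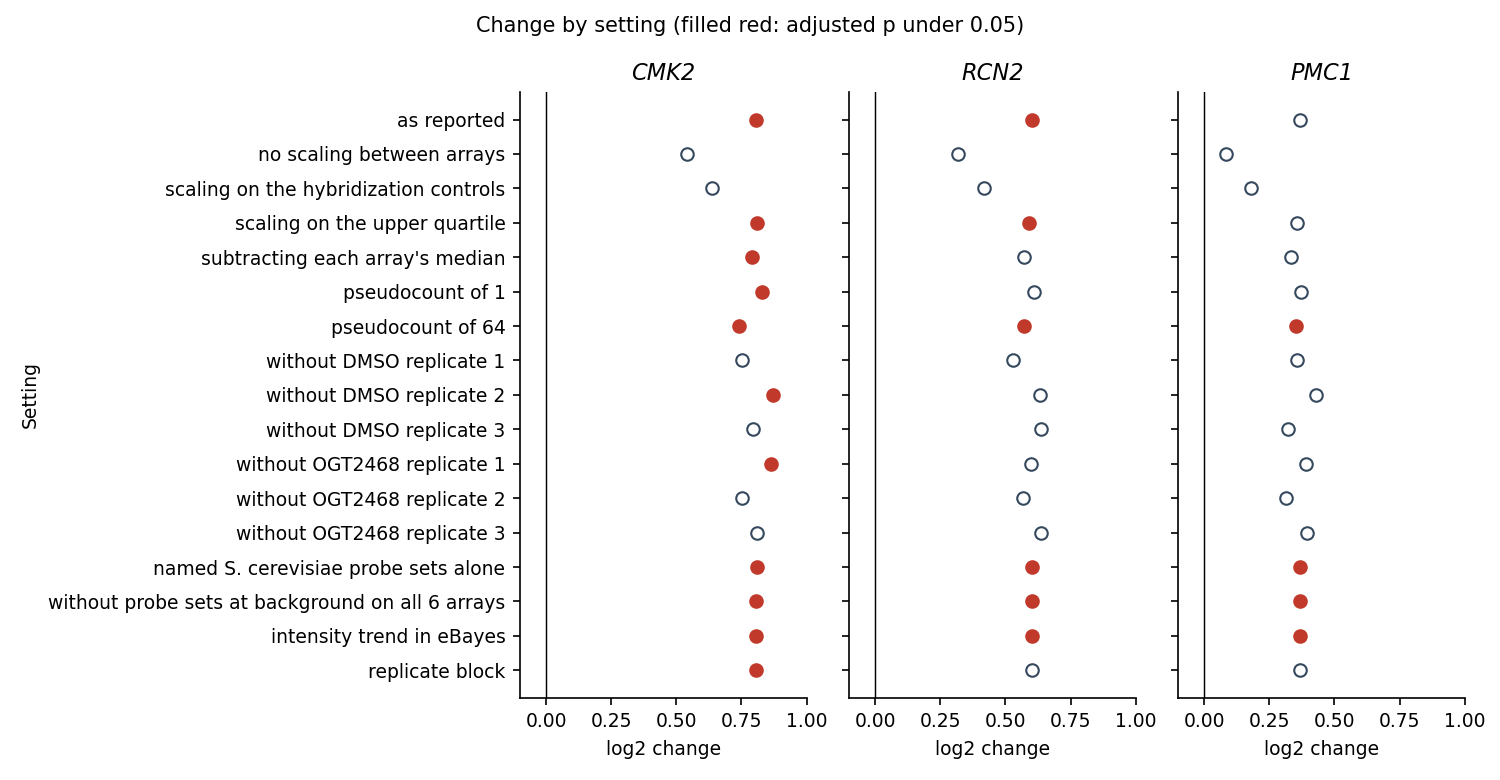
Log2 change of CMK2, RCN2 and PMC1, OGT2468 minus DMSO, as reported and under each of 16 alternative settings, 1 row per setting. Filled red points had an adjusted p under 0.05. All points lie right of 0, and they lie farthest to the left with no scaling between arrays, at 0.54, 0.32 and 0.08.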

How the data were processed

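RNA was labelled with biotin for Affymetrix arrays, per the labels' protocols. The deposited values are linear intensities, 1 for each probe set on each array. The submitters' processing notes name GCRMA, but the deposited intensities were neither log2 values, which GCRMA returns, nor on a common distribution. Their summarisation is not given in the sources. Of 10928 probe sets, 1747 of another species and 213 platform controls were left out, and 8968 were quantile normalized. The 8968 were 5498 named S. cerevisiae probe sets and 3470 with no gene name. Those 3470 entered the normalization, the limma fit, the adjustment and every share of all tested probe sets. A pseudocount of 16 was added, log2 was taken, and limma 3.58.1 in R 4.3.3 (lmFit, eBayes, no covariate) was fitted, with Benjamini-Hochberg adjustment and a threshold of 0.05. Quantile normalization hides a shift of all transcripts together, and the pseudocount understates changes of dim genes. Background was set, array by array, at percentile 98 of the probe sets of the other species. Names came through the platform annotation and an R64 gene table of 6477 genes. Its coordinates were not used, and no sequences were analysed here.

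The members and lists were chosen with earlier results of these data known. Named were all 10 members, called genes of each list with the 3 next by p, and the 5 nearest profiles of each called member. In 5 simulated data sets, with 200 of 8968 probe sets changed among those above background, limma called 93% of those changed 2-fold and 63.6% of those changed 1.41-fold, and unchanged probe sets made up 6.74% of the calls. The simulated noise was independent between probe sets, with no brightness differences between arrays and no noise shared within an array. These rates may therefore be better than those in the real data. Precision is limited by 3 arrays per group. The limma p-values set each group difference against the spread among arrays of a group, moderated over all tested probe sets. That spread holds array noise as well as differences between cultures.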

Additional observations from a re-analysis of the deposited data

How the results depend on the processing

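Of 10 members 2 were higher as reported, against 0 with no scaling between arrays, 0 with scaling on the hybridization controls, 1 after subtracting each array's median, 1 with a pseudocount of 1, 1 with the replicate block and 0 to 1 without 1 array. The target list had 5 higher, against 0 with no scaling, 3 with control scaling, 3 with the replicate block, 4 without any 1 array, and 8 with a pseudocount of 64, with named probe sets alone or with an eBayes trend. In the channel list none was higher, against 1 with a pseudocount of 64, 3 with named probe sets alone, 1 without dim probe sets and 2 with the trend. That list had 2 lower as reported and 3 in each of those settings. Over all tested probe sets 164 were higher and 68 lower. These counts were 22 and 44 with no scaling, 101 and 41 after median subtraction, 292 and 187 with a pseudocount of 64, 326 and 203 with named probe sets alone, 290 and 175 without dim probe sets, 335 and 221 with the trend, and 61 to 91 and 28 to 40 without 1 array. With control scaling 45 were higher. Of all calls 70.7% were higher, against 33.3% unscaled and 45% with control scaling. The cause was not tested.

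With no scaling the sign turned for CMP2 (-0.023), RCN1 (-0.056), PMR1 (-0.15), ECM7 (-0.020), SLM1 (-0.039), FRT1 (-0.12), IQG1 (-0.069), ARC35 (-0.064), MCK1 (-0.22) and TPK3 (-0.24). With control scaling it turned for PMR1 (-0.056), FRT1 (-0.029), MCK1 (-0.12) and TPK3 (-0.14), and without OGT2468 replicate 3 for CRZ1 (0.020). None of these genes was called in the fit as reported. ECM7 passed with named probe sets alone (limma adjusted p = 0.0451) and with the eBayes trend (0.0414). The other genes named here passed in none of the 16 alternatives.

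Replicate numbers are shared by the groups but no label ties them. Deviations of same-numbered arrays correlated at 0.06, 0.04 and 0.01. Every OGT2468 array and DMSO replicates 1 and 2 matched their own number best, and DMSO replicate 3 did not. Whether the cultures were paired cannot be told from this, and the fit as reported took no pairing into account. With the replicate block 27 probe sets were higher and 14 lower, CMK2 had an adjusted p of 0.0486 and RCN2 of 0.108.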
